A study of Mus musculus with 4 samples.

Results

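The genes described here are the replication-dependent histone genes of mouse bone marrow progenitors, which supply the bulk of the core and linker histones that package newly copied DNA. They were chosen by symbol, as every gene of the deposited matrices named H1f, H2ac, H2bc, H3c or H4c with a number. The rule found 69 symbols among 32227 genes. Of these, 64 are replication-dependent members, with 6 H1, 17 H2A, 17 H2B, 12 H3 and 12 H4 genes. The other 5, H1f0, H1f7, H1f8, H1f9 and H1f10, are linker histone genes outside the replication-dependent group and are given apart. Expression was measured in single cells with PIPseq, a droplet method that captures poly(A) RNA and counts each captured molecule once as a UMI.

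All mice were labelled WT and carried E0771 breast cancer cells, injected 3 days before the operation. The surgery group had femoral artery ligation, which cuts the blood supply of a hind limb, and the sham group had the sham operation. Marrow was taken on day 9 after the operation and sorted for Lineage– cKit+ Sca1+/- cells, a gate that holds haematopoietic stem cells and their progenitors. Each group had 4 replicates marked by hashtag antibodies, 2 of them in each of the 2 batches, and each batch is 1 library. The treatment label of each library names a single operation, while the hashtag names list both in each library, so the groups were taken from the hashtag names. The labels do not say whether replicates were separate animals, so the tests measure the spread between hashtag replicates, which may be technical. Strain, sex and age are not given in the sources used here.

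After filtering, 26880 cells remained, 14643 of batch 1 and 12237 of batch 2, and 4 of these barcodes occurred in both libraries. The surgery replicates held 1878 to 3523 cells with median depths of 6269 to 12393.5 UMIs per cell, and the sham replicates held 2392 to 5872 cells with median depths of 5860.5 to 10721 UMIs. The replicates of batch 2 were deeper than those of batch 1 in both groups. Classes were assigned by marker genes and are called by the class they resemble. The sort should hold few mature or lineage-marked cells. By their markers 3259 cells resembled B cells, 184 mature neutrophils and 326 T, NK or innate lymphoid cells. These names do not settle the stage of the cells. The leading genes of the B cell-like class began with Vpreb3, Ebf1, Vpreb1 and Igll1, which are among the markers that assigned the class. Levels are given in CPM, a gene's UMIs as a share of all UMIs of the sample on the usual CPM scale. Summed markers of B cells stood at 673 to 1002 CPM in surgery replicates and 639 to 1264 in sham replicates, and epithelial or E0771 markers at 11.3 to 12.5 in surgery and 11.1 to 13.4 in sham.

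In most cells, histone supply is tied to DNA replication. The genes of this group sit in clusters, have no introns as a rule and are switched on together in S phase through the coactivator Npat. Their mRNAs are known for ending without a poly(A) tail. They end instead at a short stem-loop that is bound by Slbp, cut by a machinery that includes the U7 snRNP, and degraded quickly when replication stops. A poly(A)-based method therefore reads these genes through tailed transcripts, stretches of A within a transcript or other priming, and the counts below are counts of captured molecules and not of all histone mRNA.

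The stem-loop is shown first because it is the feature that sets these mRNAs apart. Sequences are from GENCODE M21 transcripts on GRCm38, written 5′ to 3′ on the gene's strand, with 12 bases before the stem-loop, the stem-loop in capitals and 2 bases after it. The members are the most abundant ones, 1 or 2 of each further family, and those whose values stand apart below. The coordinates are those of the whole annotated gene, and all lie on chromosome 13.
H2ac23, chr13:21810465-21810944, plus strand: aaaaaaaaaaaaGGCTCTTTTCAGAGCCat
H2ac24, chr13:21833026-21833507, minus strand: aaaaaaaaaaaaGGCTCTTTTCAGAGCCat
H2ac11, chr13:22042460-22042944, minus strand: atcgccaacaaaGGCTCTTTTCAGAGCCac
H2ac6, chr13:23681467-23683948, minus strand: ttcaaacccaaaGGCTCTTTTCAGAGCCcc
H2ac8, chr13:23570517-23571220, minus strand: aaaaaaaacaaaGGCTCTTTTCAGAGCCat
H2bc12, chr13:22035870-22036345, plus strand: tctagcaccaaaGGCTCTTTTAAGAGCCac
H3c2, chr13:23752267-23752886, plus strand: ctggaacccaaaGGCTCTTTTCAGAGCCac
H4c2, chr13:23757013-23757409, plus strand: actgttacaaaaGGTCCTTTTCAGGACCac
H4c9, chr13:22040636-22041362, minus strand: atgctacttaaaGGCCCTTTTTAGGGCCac
H1f2, chr13:23738808-23740367, plus strand: aacaatccaaaaGGCTCTTTTCAGAGCCac

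The search took 16 bases within 120 bases after the stop codon, with the first and last 6 able to pair and a loop of 4 between them. The 16 bases also had to start with GG and to have TTT as the first bases of the loop. The counts below hold for this form and not for any hairpin. Such a stem-loop was found in 41 of the 64 members, 10 of H2A, 9 of H2B, 8 of H3, 10 of H4 and 4 of H1. For 13 members the annotated transcript ends at the stop codon, so the search had nothing to read. H2ac10 and H2ac12 have only 1 and 2 annotated bases after it, too few to hold a stem-loop. H1f1, H2bc4, H2bc21, H2bc23, H2bc24, H3c8, H3c13 and H4c1 have 37 to 2192 annotated bases after it. The search found no such stem-loop in these genes. Of 21077 other genes with enough annotated sequence, 9 held such a stem-loop, which is 0.0427%. These included the histone genes H2ax, H2aw, H2bu2, H2bw2 and H4f16. The form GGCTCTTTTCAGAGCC was shared by 9 H2A, 7 H2B, 5 H3 and 3 H1 genes. No H4 gene carried it. Of the H4 genes, 6 carried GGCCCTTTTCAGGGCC, 2 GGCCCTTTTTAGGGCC and 2 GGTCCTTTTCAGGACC. These differ from the common form in the stem, and the form with TTTT in the loop differs there too.

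The letters just before the stem-loop, which the search did not fix, varied between members. H2ac23 and H2ac24 had A at all 12 bases, H2ac8 at 11, H1f2 at 8, and H2ac11, H2ac6 and H4c2 at 6. Across the 41 genes with a stem-loop, the number of A in these 12 bases and the mean level per coding kilobase had a Spearman correlation of 0.469. It was 0.497 over the 10 H2A genes and 0.292 over the other 31. The genes share libraries, clusters and near-identical copies, so these values are a description. A poly(A) signal, AATAAA or ATTAAA in the last 60 annotated bases, was found in 14 members, among them H1f2, H4c9 and H2ac8. H1f2, H4c9 and H2ac8 had both a stem-loop and a poly(A) signal, as had other members such as H4c14 and H2bc22. H2bc4 had no stem-loop in the window and no such poly(A) signal, and its annotated transcript runs on through a splice to 742 bases after the stop codon.

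The members fell into 3 clusters on GRCm38. On chromosome 13, 23 members from H2bc13 to H2bc11 lay at chr13:21715763-22043676 and held 68.9% of the members' UMIs. A further 31 members from H4c8 to H2ac1 lay at chr13:23531050-23934851 and held 28.9%. The remaining 10, from H2ac21 to H2bc18, lay at chr3:96219865-96270132 and held 2.16%.

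H2A genes dominated the captured histone RNA. The 64 members had 1411055 UMIs over all kept cells, and H2A genes took 83.6% of them. H1 genes took 5.62%, H2B genes 5.54%, H4 genes 2.83% and H3 genes 2.37%, although each nucleosome holds the core histones in equal amounts. H2ac23 and H2ac24 alone took 45.0%. The 10 members with the highest mean level were all H2A genes, with H2ac23 at 1121 and H2ac24 at 1112 CPM. H2ac11 followed at 356, H2ac6 at 288 and H2ac8 at 226 CPM, and H2ac7, H2ac13, H2ac4, H2ac12 and H2ac22 averaged between 128 and 200.

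Scaled by coding length, H2A genes still led. H2ac23 averaged 2875 CPM per coding kilobase and H2ac11 averaged 913. The highest member of the other families was H2bc4 at 272, H4c9 at 155, H1f5 at 141 and H3c4 at 50.6 on this scale. The median member stood at 497 for H2A, 64.1 for H1, 31.1 for H2B, 23.4 for H4 and 20.5 for H3. At the other end, H1f6 had 26 UMIs in all cells, H2ac1 had 58, H2ac21 had 482 and H2bc1 had 586. The last of these and the H1f6 and H2ac1 genes are known as testis histone genes.

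Many members share sequence, and their counts may not be separate. H2ac23 and H2ac24 have the same 390 coding bases and lie at chr13:21810465-21810944 and chr13:21833026-21833507. They had 318371 and 316176 UMIs, and over the cells with at least 2 of them the split between both genes varied 0.9997 times as much as a random split at a fixed share. H2ac18 and H2ac19, H2bc23 and H2bc24, and H4c17 and H4c18 also have identical coding sequences. Of all 50-base windows in a member's transcript, the median member's share found in another member was 78.9% for H2A, 57.2% for H3, 45.3% for H2B, 39.9% for H4 and 1.10% for H1. Among the 10 highest H2A genes, the split within a pair varied 0.992 to 1.28 times as much as a random split, with a median of 1.04 over 45 pairs. For pairs from different families the median was 1.25 and the highest 6.23. Separate genes that rise and fall together could also split at random, so the split cannot show whether the counts are separate. The sources used here do not say how the authors' counting treated reads that match several copies, so levels of single H2A genes are uncertain. Single genes departed from their family, and the H1 gene H1f4 shared 32.0% of its windows while H2bc21 shared none.

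**Figure D1:**
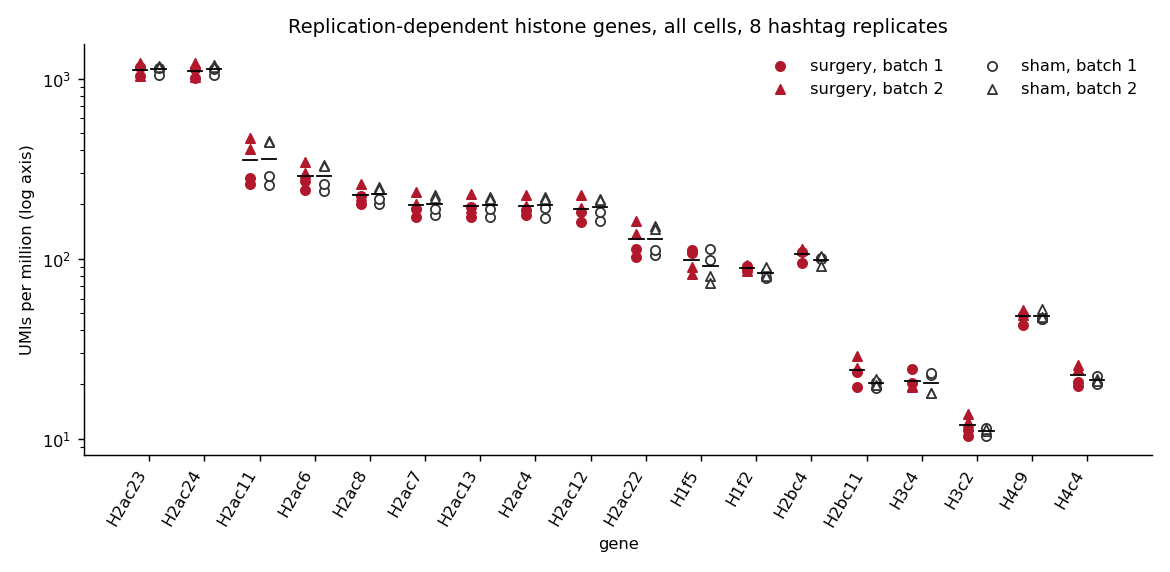
Level of 18 members in each hashtag replicate over all cells, in CPM on a log axis, with the 10 highest members and 2 members from each of the other families. Filled points are surgery, open points sham, circles batch 1, triangles batch 2, and bars are group means. H2ac23 and H2ac24 sit near 1100 CPM in both groups, and H2ac11 is higher in batch 2 than in batch 1 in both groups.

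Promoters were read from RefSeq on GRCm38.p6, over the 250 bases before the start and on both strands. Of the 69 symbols, 62 matched the table, 58 of them members. CCAAT was present in 82.8% of the members against 37.5% of 27025 genes. All matched H1, H2A and H2B promoters held it, with 80% of H3 and 27.3% of H4 promoters. TATAAA was present in 48.3% of the members against 14.3% of all genes. The octamer ATTTGCAT, known as a site of Oct-1 in H2B promoters, was present in 22.4% against 1.81%. It occurred in 50% of H2B and 35.3% of H2A promoters, and in none of the H1, H3 and H4 promoters. H2ac11 and H2bc12, both of the first cluster, show the forms that recur, with CCAAT on either strand and the octamer in capitals. H2ac11 is the third most abundant member, and H2bc12 had the lowest unadjusted p of all members in the comparison of surgery and sham over all cells. The 120 bases before the start are given.
H2ac11, chr13:22042950-22043069, minus strand: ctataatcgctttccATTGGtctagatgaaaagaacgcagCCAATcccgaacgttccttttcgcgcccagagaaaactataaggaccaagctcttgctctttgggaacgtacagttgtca
H2bc12, chr13:22035701-22035820, plus strand: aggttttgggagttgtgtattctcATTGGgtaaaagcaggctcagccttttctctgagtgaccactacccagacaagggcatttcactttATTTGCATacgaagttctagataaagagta

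The first question was how the members followed the cell cycle. Each cell was thinned to 2000 UMIs and placed by the UMIs of 31 S phase genes and of 24 G2 and M phase genes, none of them a member. Of 26880 cells, 23969 were deep enough and 2911 were left out. Cells with at least 6 UMIs of the G2 and M list were called high and those with at most 1 low. For the S list the bounds were 9 and 3. Full counts were then summed per replicate and fraction and tested with edgeR's quasi-likelihood test, the replicate as block and Benjamini-Hochberg adjustment over all genes.

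The members rose strongly and together in cells high in the G2 and M list. There were 7665 high cells, with a median of 11112 UMIs, and 7842 low cells, with a median of 6892. The summed members stood at 7848 ± 701 CPM in high cells and 1765 ± 144 in low cells (SD, n = 8 each), a ratio of 4.45 with no overlap between the fractions. All 62 members tested were higher at an adjusted p under 0.05 and 0 were lower, against 31.8% and 33% of all genes tested. Their median log2 fold change was 2.19, with a range of 0.28 to 3.01, and the median over all genes was near 0 at -0.017. Within batch 1 alone 62 members were called higher, and within batch 2 alone 62. Of the 64 members, H1f6 and H2ac1 did not pass the filter on low counts.

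H2ac23 ran between 1678 and 1913 CPM in the high fraction, with a median of 1795, and between 316 and 403 in the low fraction, with a median of 348. The log2 fold change was 2.39 ± 0.04 (SE, edgeR adjusted p = 1.1e-20). The fractions did not overlap in any replicate. The log2 fold changes of the 10 highest members lay between 2.18 and 2.46, which is close to the median member.

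The largest changes came from less abundant genes of several families. H3c2, a core histone H3 gene, ran between 18.3 and 25.7 CPM in the high fraction, with a median of 19.5, and between 1.45 and 3.51 in the low fraction, with a median of 2.90. On the log2 scale it changed by 3.01 ± 0.10. H1f5, a linker histone gene, had a log2 fold change of 2.91 ± 0.05, H2ac10 2.78 ± 0.06, H2bc3 2.74 ± 0.08 and H2bc22 2.72 ± 0.13. Family medians of the log2 fold change were 2.40 for H2A, 2.25 for H3, 2.21 for H2B, 1.88 for H4 and 1.79 for H1.

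H2bc4 and H1f2 stood at the low end. H2bc4 ran between 98.0 and 135 CPM in the high fraction, with a median of 113, and between 87.2 and 114 in the low fraction, with a median of 95.1. These ranges overlap, and the log2 fold change was 0.28 ± 0.04 (edgeR adjusted p = 2.06e-05). H1f2 ran between 90.8 and 114 with a median of 103 in the high fraction, and between 63.7 and 83.8 with a median of 76.0 in the low fraction, a log2 fold change of 0.50 ± 0.03 (edgeR adjusted p = 2.62e-11). The next lowest were H3c1 at 1.12 ± 0.09, H3c6 at 1.15 ± 0.10 and H4c1 at 1.25 ± 0.13.

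Class makeup differed between the fractions. Erythroid-like cells made up 19.8% of the high and 2.84% of the low fraction, HSC/MPP-like cells 5.18% and 12.1%, and T, NK or innate lymphoid-like cells 0.300% and 3.12%. The comparison was therefore repeated within the 5 classes with at least 100 cells in every replicate. In HSC/MPP-like cells the summed members stood at 10147 ± 1204 CPM in the high and 1663 ± 264 in the low fraction, and 33 of 33 members tested were higher, against 13.6% of all genes. The filter on low counts left fewer members in a class than over all cells, and a member can pass it through the fraction where it is high. In B cell-like cells 26 of 27 were higher, against 31.4%, with the largest median log2 fold change of the 5 classes at 3.94. In monocyte progenitor-like cells 50 of 51 were higher, against 17%, and in neutrophil progenitor-like cells 55 of 57, against 14.1%. None was lower in these 4 classes, where 12.6%, 31.4%, 18.5% and 14.8% of all genes were.

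Erythroid-like cells had members in both directions. There 19 of 25 members tested were higher, against 24.7% of all genes, and 2 were lower, against 26.1%. The lower ones were H2bc4, with a log2 fold change of -0.60 ± 0.19 (edgeR adjusted p = 0.00649), and H1f2, with -0.45 ± 0.17 (edgeR adjusted p = 0.027). The differences between classes were not tested.

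The S list separated the members far less. There were 7859 high cells, with a median of 10873 UMIs, and 6924 low cells, with a median of 5919.5. The summed members stood at 5335 ± 443 CPM in high cells and 4410 ± 510 in low cells (SD, n = 8 each), a ratio of 1.21 with overlapping ranges. Without the H2A genes the sums were 828 in high and 897 in low cells. Of 62 members tested 33 were higher and 11 lower, against 33% and 33.5% of all genes, so the share of lower members was below that of all genes and the share of higher ones above it. The median log2 fold change of the members was 0.23, against -0.019 over all genes.

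Against the same 33% and 33.5%, counts were as follows by family. Of the H2A genes 12 of 16 were higher and 2 lower, of H3 9 of 12 and 1, of H4 7 of 12 and 1, and of H1 3 of 5 and 1. Of the 17 H2B genes 2 were higher and 6 lower, the lower count being near the share of all genes. H1f1 had the largest increase, between 21.2 and 27.1 CPM in the high fraction, with a median of 25, and between 9.16 and 13.5 in the low fraction, with a median of 11.2. On the log2 scale it changed by 1.19 ± 0.07. H1f5 followed at 1.13 ± 0.04, H4c2 at 0.85 ± 0.08, H3c2 at 0.76 ± 0.09 and H4c14 at 0.69 ± 0.11.

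H2bc4 and H1f2 were again the lowest, now with clear decreases. H2bc4 ran between 55.2 and 67.7 CPM in the high fraction, with a median of 60.8, and between 146 and 188 in the low fraction, with a median of 170. Its log2 fold change was -1.36 ± 0.04 (edgeR adjusted p = 3.86e-17). H1f2 ran between 53.6 and 67.4 with a median of 61.5 in the high fraction, and between 118 and 135 with a median of 123 in the low fraction, a log2 fold change of -0.93 ± 0.03 (edgeR adjusted p = 6.99e-15). Neither gene's fractions overlapped. H2bc24 at -0.62 ± 0.07, H2ac18 at -0.50 ± 0.05 and H2ac19 at -0.47 ± 0.06 were the next lowest. H2ac23 ran between 1148 and 1329 CPM in the high fraction, with a median of 1216, and between 773 and 1106 in the low fraction, with a median of 922, and the log2 fold changes of the 10 highest members lay between 0.24 and 0.48.

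**Figure D2:**
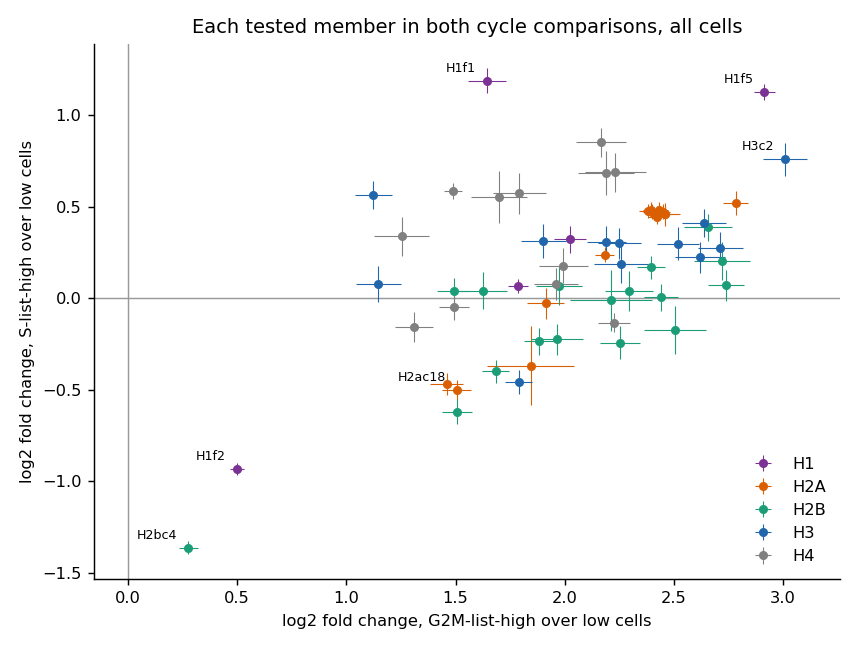
Log2 fold change of each member in cells high against cells low in the G2 and M list (x axis) and in the S list (y axis), coloured by family, with lines for the SE. H2bc4 (0.28, -1.36) and H1f2 (0.50, -0.93) lie apart at the lower left, and H1f1 (1.19) and H1f5 (1.13) are the highest on the y axis.

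Within classes the S list comparison varied. In neutrophil progenitor-like cells 25 of 58 members were higher and 3 lower, against 15.2% and 14.6% of all genes. In HSC/MPP-like cells 10 of 25 were higher and 5 lower, against 17.5% and 17.9%, in erythroid-like cells 15 and 4, against 28.2% and 28%, and in B cell-like cells 20 and 1, against 32.8% and 34.2%. In monocyte progenitor-like cells 2 of 50 were higher and 27 lower, against 15.5% and 15%, with a median log2 fold change of -0.31. The higher ones there were H1f1 at 0.41 and H1f5 at 0.26.

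H2bc4 fell in the S-list-high fraction of 4 of the 5 classes. Its log2 fold change was -2.16 in HSC/MPP-like, -1.25 in neutrophil progenitor-like, -1.09 in monocyte progenitor-like and -0.84 in erythroid-like cells. In B cell-like cells it was 0.18 and not called (edgeR adjusted p = 0.228). H1f2 fell in all 5, by 1.64 in HSC/MPP-like, 0.61 in neutrophil progenitor-like, 0.85 in monocyte progenitor-like, 0.80 in erythroid-like and 0.64 in B cell-like cells on the log2 scale.

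Both lists combined give the summed level its order. Cells low in both lists had 2.44 member UMIs per 2000, with replicates between 2.14 and 2.78. With the G2 and M list low, the values were 3.28 at a middle and 3.55 at a high S list level. With the G2 and M list at the middle they were 5.35, 7.85 and 8.74 from low to high S list level. With the G2 and M list high they were 14.3, 17.6 and 15.9. Cells low in the S list and high in the G2 and M list ran between 12.4 and 15.4 over the replicates, and cells high in both between 14.0 and 17.8.

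**Figure D3:**
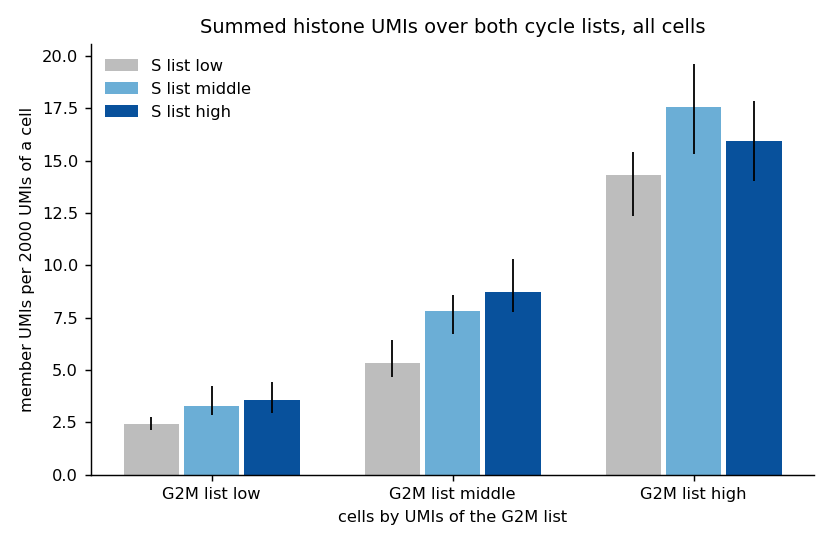
Member UMIs per 2000 UMIs of a cell in the 9 combinations of low, middle and high S list and G2 and M list level. Bars are means over the 8 hashtag replicates and lines run from the lowest to the highest replicate. The level climbs from 2.44 to 14.3 along the G2 and M list at a low S list level, and from 2.44 to 3.55 along the S list at a low G2 and M list level.

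Genes that make and handle histone mRNA and protein were followed as fixed lists in the same cells. Of 20 tested genes for histone mRNA synthesis and 3′ processing, 12 were higher and 2 lower in cells high in the S list, against 33% and 33.5% of all genes. Slbp, the stem-loop binding protein, had a log2 fold change of 1.56 ± 0.03, and Eri1, a 3′ exonuclease that trims histone mRNA ends, and Casp8ap2, a factor of histone gene expression, had 0.84 each. In cells high in the G2 and M list, 11 of 21 were higher and 3 lower, against 31.8% and 33% of all genes, with Zfp473, a U7 snRNP-associated zinc finger protein, at 1.39, Slbp at 0.78 and Eri1 at 0.46. Of 18 histone chaperone and import genes, 15 were higher and 0 lower in cells high in the S list, again against 33% and 33.5%, led by the CAF-1 subunits Chaf1b at 1.60 and Chaf1a at 1.36 and the H3-H4 chaperone Nasp at 1.30. In cells high in the G2 and M list 12 were higher and 2 lower, again against 31.8% and 33%, led by Asf1b at 1.53.

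The fixed list of replacement variants, a term for histones made outside replication too, numbered 12 tested genes. H2ax and H2bu2 of this list held the stem-loop searched for above, a feature they share with many members. In cells high in the G2 and M list 9 were higher and 2 lower, against 31.8% and 33% of all genes, led by the centromeric H3 variant Cenpa at 2.60, by H2bu2 at 2.28 and by the DNA damage-associated H2ax at 2.07. In cells high in the S list 4 were higher and 4 lower, near the 33% and 33.5% of all genes, with Macroh2a2 at 1.06, H1f10 at -0.85 and Cenpa at -0.76.

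The second question was how the members differed between cell classes. The 10 classes were compared, with the HSC/MPP-like class of 2104 cells as the baseline. A member can pass the filter on low counts through the class of a pair where it is high, so the counts of called members are a description. Summed members were highest in basophil-mast progenitor-like cells, at 7614 ± 872 CPM (SD over 8 replicates). Monocyte progenitor-like cells followed at 6200 ± 486, mature neutrophil-like at 5177 ± 1108, B cell-like at 5067 ± 753, megakaryocyte progenitor-like at 4852 ± 813 and erythroid-like at 4782 ± 310. HSC/MPP-like cells stood at 4738 ± 594, neutrophil progenitor-like at 4356 ± 561, lymphoid-primed-like at 3820 ± 638 and T, NK or innate lymphoid-like at 1651 ± 696. The basophil-mast class was above the monocyte class in 8 of 8 replicates and the monocyte class above the mature neutrophil class in 8 of 8. From the mature neutrophil class down to the HSC/MPP class, neighbours kept their order in only 5 of 8 replicates each, and the ranges of neighbours overlapped except between lymphoid-primed-like and T, NK or innate lymphoid-like cells. Median depth differed between classes, from 2769 UMIs in B cell-like to 16079 in neutrophil progenitor-like cells.

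Basophil-mast progenitor-like cells had more of the members than HSC/MPP-like cells. All 56 members tested were higher and 0 lower than in HSC/MPP-like cells, against 29.3% and 29.4% of all genes, with a median log2 fold change of 1.03. The highest was H2bc22 at 1.85 ± 0.18 (edgeR adjusted p = 9.13e-13) and the lowest H1f1 at 0.32 ± 0.13 (edgeR adjusted p = 0.0254). The call of H1f1 was lost without sham replicate 1 of batch 2, at 0.24, without sham replicate 2 of batch 1, at 0.30, and without surgery replicate 2 of batch 2, at 0.27. H2bc4 averaged 294 CPM there and 142 in HSC/MPP-like cells, and H1f2 averaged 250 and 129. With total UMIs as the only scaling, 54 were higher and 0 lower, and the median of all genes shifted to -0.20.

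Mature neutrophil-like cells also had more, from 184 cells. Of the 24 genes of the G2 and M list, 22 were also higher than in HSC/MPP-like cells and 0 lower, against 26.4% and 33% of all genes. The class name therefore does not mean cells that have stopped dividing. The list was not higher in this class alone. All 24 were higher in erythroid-like and B cell-like cells, against 40.3% and 34.6% of all genes. In monocyte and basophil-mast progenitor-like cells 22 were, against 35.9% and 29.3%. In neutrophil progenitor-like cells 14 were higher and 7 lower, against 37.6% and 38.4%. In T, NK or innate lymphoid-like cells it was 0 and 10, against 24.8% each. Of 44 members tested in mature neutrophil-like cells 36 were higher and 2 lower, against 26.4% and 33% of all genes, whose median was itself at -0.12. With total UMIs only it was 25 and 5, with the median of all genes at -0.51. H2bc14 had the highest log2 fold change, 2.22 ± 0.25 (edgeR adjusted p = 4.25e-16), and H1f1 the lowest, -2.51 ± 0.43 from 7 UMIs (edgeR adjusted p = 7.52e-08).

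In the neutrophil, monocyte and erythroid progenitor-like classes the counts of H2A genes differed from those of the other families. In neutrophil progenitor-like cells 11 of 60 members were higher and 29 lower, against 37.6% and 38.4% of all genes. All 11 were H2A genes, out of 15 tested, while of the 45 members of other families 0 were higher and 26 lower. H2ac11 was the highest at 0.46 ± 0.04 and H1f1 the lowest at -1.17 ± 0.10. In erythroid-like cells 15 members were higher and 19 lower, against 40.3% and 41.3%, with 11 of 15 H2A genes higher and 10 of 16 H2B genes lower. H4c9 was the highest at 0.89 ± 0.09 (edgeR adjusted p = 5.77e-10) and H2bc4 the lowest at -1.37 ± 0.09 (edgeR adjusted p = 2.27e-13), with H2bc4 at 47.2 CPM in erythroid-like and 142 in HSC/MPP-like cells.

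Monocyte progenitor-like cells had 20 members higher and 12 lower of 60, against 35.9% and 36.8%, with 12 of 15 H2A genes higher. H2ac10 was the highest at 0.83 ± 0.10 and H2bc15 the lowest at -0.74 ± 0.13. These 3 classes depended on scaling. With total UMIs only, 2 were higher and 48 lower in neutrophil progenitor-like, 10 and 32 in erythroid-like, and 14 and 23 in monocyte progenitor-like cells, while the medians of all genes shifted to -0.35, -0.22 and -0.22. Relative to the median of all genes, the median member lay at -0.24, -0.18 and 0.04 under either scaling. A change of scaling shifts all genes nearly alike, so this agreement was given in advance and is no support for the calls.

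The B cell, megakaryocyte progenitor, lymphoid-primed and T, NK or innate lymphoid-like classes differed in how many members were called. In B cell-like cells 12 of 56 members were higher and 11 lower, against 34.6% and 35.4%, led by H1f5 at 0.81 ± 0.07 and with H3c4 the lowest at -0.96 ± 0.13. With total UMIs only 16 were higher and 11 lower there. In megakaryocyte progenitor-like cells 2 of 44 were higher and 3 lower, against 24.7% and 24%, with H2bc4 at 0.31 ± 0.10 (edgeR adjusted p = 0.00767) and H2ac19 at -0.52 ± 0.15 (edgeR adjusted p = 0.00285). The call of H2bc4 was lost without sham replicate 1 of batch 1, at 0.23, and without surgery replicate 1 of batch 1, at 0.19. In batch 2 alone its value turned to -0.014, and DESeq2 and the fit without the replicate block called 0 members higher in this class. In lymphoid-primed-like cells 0 of 49 were higher and 18 lower, against 17% and 15.1%, from H3c4 at -0.88 ± 0.16 to H2ac8 at -0.19 ± 0.07 (edgeR adjusted p = 0.0325). The call of H2ac8 was lost without any 1 of 5 replicates, sham replicate 1 or 2 of batch 2, sham replicate 2 of batch 1, surgery replicate 1 of batch 2 or surgery replicate 2 of batch 1, with values between -0.18 and -0.11. In T, NK or innate lymphoid-like cells 0 of 27 were higher and 24 lower, against 24.8% in each direction, and the smallest of these decreases was H1f5 at -0.75 ± 0.20. Members that are low in lymphoid-primed-like or T, NK or innate lymphoid-like cells can pass the filter on low counts through HSC/MPP-like cells. They could then only come out lower, so neither count is support for a decrease. In T, NK or innate lymphoid-like cells the count without the filter was 38. H1f1 had 1 UMI in this class, with 0 to 6.56 CPM per replicate against 24 to 37 in HSC/MPP-like cells. Only 1 of the 10 leading genes of this class is among its markers, and none is a marker of another class. All 8 of its markers were at least 2-fold higher than in the other cells. The cells were assigned by these markers, so this follows from the gate and is no support for the class name.

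**Figure D4:**
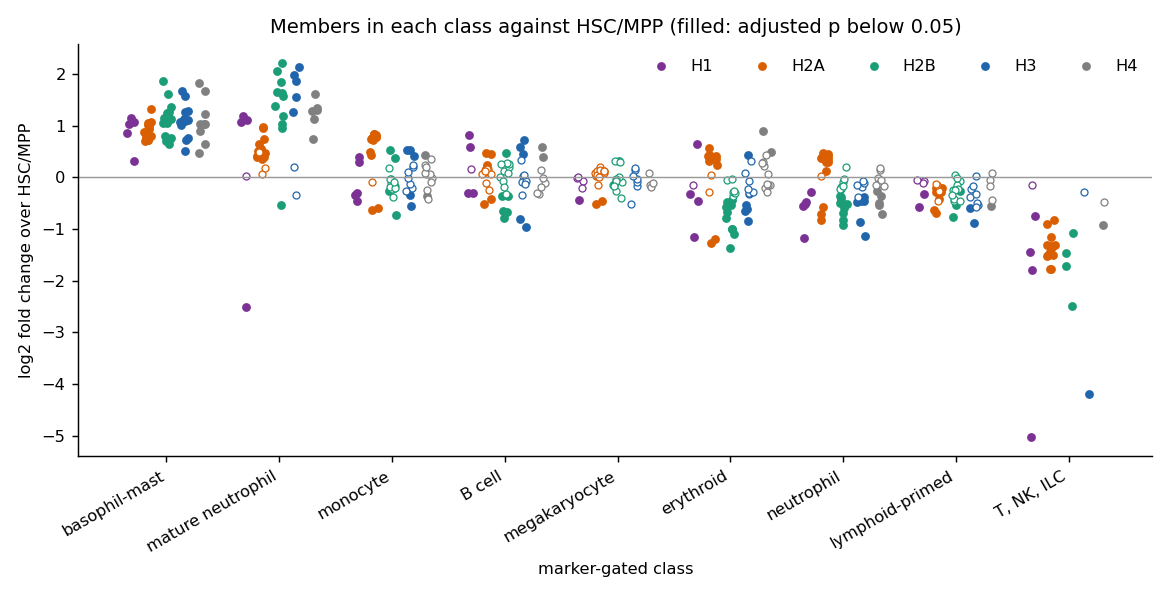
Log2 fold change of each tested member over HSC/MPP-like cells, by class and family, with filled points for adjusted p under 0.05. Basophil-mast progenitor-like cells lie above 0 for all 56 members, and in neutrophil progenitor-like cells the H2A genes lie mostly above 0 and the other families mostly below it.

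The third question was the effect of the operation. Summed over all members and all cells, the surgery replicates had 4860 and 4384 CPM in batch 1 and 4923 and 5685 in batch 2, and the sham replicates had 4423 and 4798 in batch 1 and 5338 and 5238 in batch 2. The groups overlap, with means of 4963 ± 538 in surgery and 4949 ± 422 in sham (SD, n = 4 each). Without the H2A genes, the surgery replicates had 820 and 768 in batch 1 and 900 and 946 in batch 2, against 749 and 799 in batch 1 and 790 and 790 in batch 2 for sham. The lower surgery replicate of batch 1 lay within the sham range, and the means were 859 ± 79.8 in surgery and 782 ± 22.3 in sham.

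No member passed an adjusted p of 0.05 in any of the 11 comparisons of surgery and sham, over all cells and in each of the 10 classes. Without the low-count filter 3 were called, H2bc8, H1f5 and H2bc11 in neutrophil progenitor-like cells, and in batch 2 alone 1 was, H3c14 in monocyte progenitor-like cells. Over all cells 0 of 62 members were called by edgeR, against 0.0415% of all genes, and DESeq2 called 0 as well. In HSC/MPP-like cells 0.0293% of all genes were called, in lymphoid-primed-like 0.302%, in neutrophil progenitor-like 0.0768%, in monocyte progenitor-like 0.0842%, in B cell-like 0.0713%, in basophil-mast progenitor-like 0.0116% and in T, NK or innate lymphoid-like cells 0.0644%. In erythroid-like, mature neutrophil-like and megakaryocyte progenitor-like cells it was 0. With so few genes called at all, a count of 0 members is near the background.

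The direction of the uncalled values leaned one way. Over all cells 55 of 62 members had a positive log2 fold change, with a median of 0.15, against -0.0021 over all genes. At an unadjusted p under 0.05 there were 18 members, 29.0%, and all were higher, against 2.51% of all genes higher and 1.98% lower. All 46 members outside H2A were positive, with a median of 0.17, while the 10 highest members, all H2A, lay between -0.027 and 0.012. Many members share sequence and their UMIs may not be separate, so these counts are not taken as counts of independent genes.

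The lean came mostly from batch 2. Within batch 1 alone the median log2 fold change of the members was 0.0196, with 36 of 62 positive, and outside H2A it was 0.0351, with 28 of 46 positive. Within batch 2 alone the medians were 0.264, with 55 of 63 positive, and 0.334, with 45 of 46 positive. The summed H2B genes differed by 0.07 in batch 1 and 0.28 in batch 2 on the log2 scale, H3 genes by -0.02 and 0.27, H4 genes by -0.01 and 0.25 and H1 genes by 0.05 and 0.13, while H2A genes differed by -0.0032 and -0.038. The interaction of surgery with batch was tested for 509 pairs of member and comparison, and the lowest adjusted p was 0.267, so a difference between batches was not shown for any single member.

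**Figure D5:**
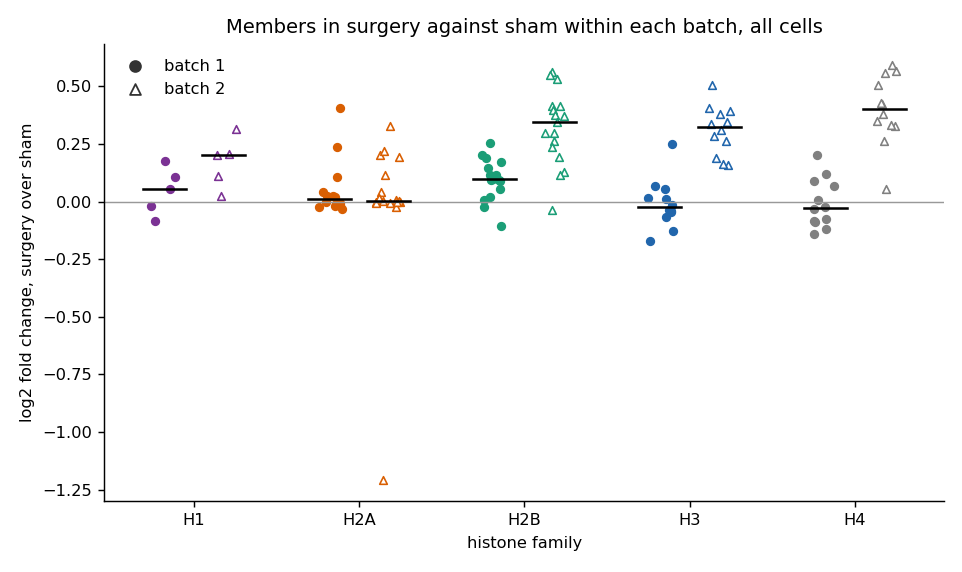
Log2 fold change of surgery over sham for each member over all cells, by family, with filled circles for batch 1, open triangles for batch 2 and bars for medians. The members outside H2A lie around 0 in batch 1 and mostly above 0 in batch 2.

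Single members show the size of these differences. H2bc12 had the lowest unadjusted p over all cells, with 12.2 and 11.4 CPM in batch 1 and 14.6 and 16.4 in batch 2 for surgery, against 9.46 and 10.8 in batch 1 and 11.9 and 12 in batch 2 for sham. Each surgery replicate was above the sham replicates of its own batch, while across batches the groups overlap. Its log2 fold change was 0.31 ± 0.08 (edgeR adjusted p = 0.9999).

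H2ac21 was the only member whose groups did not overlap over all cells, with 2.01 and 1.97 CPM in batch 1 and 1.82 and 1.81 in batch 2 for surgery, against 1.34 and 1.61 in batch 1 and 1.68 and 1.57 in batch 2 for sham. That is 1.61% of the members, against 0.765% of all genes higher in every surgery replicate. No member was lower in every surgery replicate, against 0.955% of all genes. H2ac21 is among the least abundant members, and its log2 fold change of 0.30 was not called.

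The lowest adjusted p in any class was that of H2bc8 in neutrophil progenitor-like cells. It had 16.6 and 14.3 CPM in batch 1 and 24.6 and 26.5 in batch 2 for surgery, against 12.8 and 13.1 in batch 1 and 18.5 and 16.3 in batch 2 for sham, from 1691 UMIs. The log2 fold change was 0.44 ± 0.09 (edgeR adjusted p = 0.151), and without the low-count filter it was 0.43 and called (edgeR adjusted p = 0.000854). Surgery replicates were above sham replicates within each batch.

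More abundant members overlapped between the groups. H2ac23 had 1157 and 1028 CPM in batch 1 and 1039 and 1224 in batch 2 for surgery, against 1048 and 1141 in batch 1 and 1176 and 1155 in batch 2 for sham. H2bc4 had 109 and 94.2 in batch 1 and 113 and 111 in batch 2 for surgery, against 101 and 99.4 in batch 1 and 91.4 and 103 in batch 2 for sham. H1f5 had 112 and 108 in batch 1 and 82.2 and 89.5 in batch 2 for surgery, against 97.8 and 113 in batch 1 and 80.0 and 72.8 in batch 2 for sham. Each of these genes had sham replicates above its lowest surgery replicate.

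Within classes, the median member ranged from -0.45 in T, NK or innate lymphoid-like cells, with 7 members tested, to 0.21 in megakaryocyte progenitor-like cells. In neutrophil progenitor-like cells it was 0.17, with 57 of 62 positive, in B cell-like cells 0.18, in lymphoid-primed-like 0.16, in monocyte progenitor-like 0.14, in HSC/MPP-like 0.11, in basophil-mast progenitor-like 0.09, in mature neutrophil-like 0.04 and in erythroid-like cells 0.0050.

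Cell cycle shares did not differ beyond the spread between replicates. The share of cells high in the S list was 32.8 ± 1.97% in surgery and 32.2 ± 2.66% in sham, a difference of 0.54 points (two-sided exact permutation test, p = 0.83). The share high in the G2 and M list was 31.0 ± 3.32% in surgery and 31.8 ± 2.43% in sham (exact permutation p = 0.714). Surgery minus sham was -0.46 percentage points within batch 1 and -1.10 within batch 2. Without thinning, which leaves the depth of the cells in the shares, this difference turned to 3.27 points, and that of the S list moved to 3.45 points. With 4 replicates against 4 the smallest possible p is 0.0286, and the lowest adjusted p over 22 such tests was 0.971. With replicates exchanged only within their batch, an alternative chosen after seeing the data, 36 assignments allow no p below 0.0556, and the exact permutation p was 0.778 for the S list and 0.667 for the G2 and M list. The fixed lists had no call between surgery and sham over all cells either. Their median log2 fold changes were 0.0025 for the replacement variants, -0.016 for histone mRNA processing, -0.015 for the chaperones, -0.014 for the S list and -0.044 for the G2 and M list, of which 5 of 24 were positive.

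The linker genes outside the replication-dependent group behaved differently by class. H1f7 and H1f9 had 0 UMIs and H1f8 had 5, and these are known as germ cell linker histones. H1f0, the linker histone of differentiated and non-dividing cells, averaged 32.3 CPM over all cells and H1f10 averaged 20.04. H1f0 averaged 110 in basophil-mast progenitor-like, 83.6 in megakaryocyte progenitor-like, 77.1 in B cell-like, 27.5 in lymphoid-primed-like and 16.4 in neutrophil progenitor-like cells, against 68.1 in HSC/MPP-like cells. Its log2 fold change over HSC/MPP-like cells was 0.94 and 0.40 in the first 2 of these and -1.13 and -1.69 in the last 2, all called, and 0.15 in B cell-like cells, not called (edgeR adjusted p = 0.103).

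H1f10 was highest in the megakaryocyte progenitor-like and HSC/MPP-like cells, at 91.0 in megakaryocyte progenitor-like and 77.5 CPM in HSC/MPP-like cells. Its log2 fold change was 0.28 in megakaryocyte progenitor-like cells (edgeR adjusted p = 0.0164), -0.56 in basophil-mast progenitor-like, -1.19 in lymphoid-primed-like, -2.30 in neutrophil progenitor-like, -2.46 in B cell-like, -2.91 in monocyte progenitor-like and -3.26 in erythroid-like cells. The call in megakaryocyte progenitor-like cells was lost without sham replicate 2 of batch 1, at 0.24, and without sham replicate 2 of batch 2, at 0.17. In mature neutrophil-like and in T, NK or innate lymphoid-like cells it had 2 UMIs each.

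Both genes changed in opposite directions along the 2 lists. In cells high in the G2 and M list H1f0 changed by 0.53 ± 0.08 and H1f10 by 0.39 ± 0.06, and in cells high in the S list by -0.65 ± 0.05 and -0.85 ± 0.06 (log2, all called). In surgery against sham H1f0 had 31.7 and 29.0 CPM in batch 1 and 28.5 and 35.8 in batch 2 for surgery, against 35.7 and 31.5 in batch 1 and 35.9 and 30.1 in batch 2 for sham. H1f10 had 17.5 and 20.9 in batch 1 and 23 and 22 in batch 2 for surgery, against 18.6 and 18.4 in batch 1 and 18.6 and 21.3 in batch 2 for sham. The groups overlap for both genes, and neither was called, with log2 fold changes of -0.07 ± 0.09 for H1f0 and 0.13 ± 0.07 for H1f10.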

How the data were processed

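Single-cell RNA and hashtag counts were analysed from 2 PIPseq libraries. Per the submitters' processing notes, Cell Ranger and GRCm38 were used, with versions and the treatment of multiply matching reads not given in the sources used here. Values in the deposited matrices are raw UMI counts, whole numbers for each gene in each barcode, with 18094 barcodes in batch 1 and 14179 in batch 2. Hashtag rows in the same matrices took 22.2% and 16.1% of all counts and were left out of library sizes. Barcodes with exactly 1 hashtag at 200 counts or more, at least 500 genes and 1000 UMIs and at most 10% mitochondrial UMIs were kept, and Scrublet doublets (0.592% and 0.671%) were removed. Cells took the class whose markers led by 1.5 times with at least 2 detected, and 6428 took none. Counts were summed per hashtag replicate, and per class with at least 10 cells in every replicate.

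Tests used edgeR 4.0.16 in R 4.3.3 (filterByExpr, TMM, quasi-likelihood, Benjamini-Hochberg adjustment over all genes tested), with batch as a term for surgery against sham and the replicate as block for classes and cycle fractions. DESeq2 1.42.0, other scalings, no low-count filter, single batches and left-out replicates were alternatives. On simulated counts for surgery against sham over all cells (16665 genes), 97% of genes changed 2-fold and 100% of those changed 4-fold were called. Of the unchanged genes 7 were called. The simulation had 1 fixed spread for all genes, no batch difference and changed genes only above a minimum mean count. Changes below 2-fold, such as those of the members over all cells, were not simulated, so it does not show the power for them. Stem-loops and motifs were searched in GENCODE M21 transcripts and RefSeq promoters, after checking that both use GRCm38. The members, gene lists and tests were chosen with earlier results of these data known. Named were the 10 members with the highest mean level, every member called in surgery against sham, the 5 highest and 5 lowest called members along each cycle list, the highest and lowest called member of each class, the linker genes apart, and up to 3 genes of each fixed list. H2bc12, H2ac21, H2bc8 and some genes shown for their sequence or level fall outside this rule and were chosen after their values were seen. Intervals and SDs cover the spread between replicates only.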

Additional observations from a re-analysis of the deposited data

Results flagged for a closer look

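Summed levels of the replication-dependent members were checked for a replicate far from the others in 64 groups of 4, by the gap to the nearest replicate over the whole range, set against Dixon's critical value for 4. Chance alone marks about 1 group in 20. In 5 groups 1 replicate stood apart. In mature neutrophil-like cells of surgery, replicate 2 of batch 2 had 6711 CPM, the nearest replicate 4694 and the lowest 4359, a ratio of 0.858. Without the H2A genes the same replicate had 1889, the nearest 1294 and the lowest 1211, a ratio of 0.877. In megakaryocyte progenitor-like cells of surgery, replicate 2 of batch 1 was low at 3802, with the nearest at 5528 and the highest at 5813, a ratio of 0.858. Both of these classes are small, with 184 and 477 cells in all. Among sham replicates, replicate 1 of batch 1 was low without the H2A genes in neutrophil progenitor-like cells, at 525 with the nearest at 607 and the highest at 613, a ratio of 0.930. The same replicate was low in erythroid-like cells, at 662 with the nearest at 730 and the highest at 736, a ratio of 0.916. It also had the lowest median depth of the 8 replicates, 5860.5 UMIs per cell. Without this replicate, the median log2 fold change of surgery over sham over all cells was 0.14, with 50 of 63 members positive.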

How the results depend on the processing

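Counts of called members kept within 1.5 times of their value for most comparisons and settings, namely scaling, the low-count filter, DESeq2, batches alone, replicates left out, hashtag minimum, doublets, thinning and a stricter gate. Of the summary values recomputed, 444 stayed within that bound, 33 moved and 1 reversed, and of the values of single genes 1269 kept direction and call, 28 lost the call, 2 gained it and 2 reversed. In surgery against sham, 0 members were called over all cells in every setting run. In the classes batch 2 alone called 1, H3c14 in monocyte progenitor-like cells at 0.92 ± 0.20 (edgeR adjusted p = 0.0230), and no low-count filter called 3 in neutrophil progenitor-like cells, H2bc8 at 0.43 (edgeR adjusted p = 0.000854), H1f5 at 0.25 (0.00207) and H2bc11 at 0.34 (0.0305). The median over members was 0.0196 in batch 1 alone, and outside H2A 0.0351 in batch 1 alone and 0.334 in batch 2 alone; leaving out 1 replicate gave 0.100 to 0.203 and 0.128 to 0.236. For the 10 highest members the sign of the median turned between settings. The cause was not tested for any of these.

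Against HSC/MPP-like cells, total UMIs only gave 2 members higher and 48 lower in neutrophil progenitor-like, 32 lower in erythroid-like, 23 lower in monocyte progenitor-like, 5 lower in mature neutrophil-like and 1 higher in megakaryocyte progenitor-like cells. DESeq2 gave 7 higher in B cell-like, 0 higher in megakaryocyte progenitor-like and 11 lower in lymphoid-primed-like cells, and size factors in edgeR 1 higher in megakaryocyte progenitor-like cells. Batch 1 alone gave 19 lower in neutrophil progenitor-like, and 1 higher and 1 lower in megakaryocyte progenitor-like cells. Batch 2 alone gave 7 higher in B cell-like and 7 lower in monocyte progenitor-like cells. No low-count filter, which tests more genes, gave 16 lower in neutrophil progenitor-like, 5 lower in monocyte progenitor-like, 38 lower in T, NK or innate lymphoid-like and 1 higher in megakaryocyte progenitor-like cells. In megakaryocyte progenitor-like cells leaving out 1 replicate gave 0 to 5 higher: 0 without sham or surgery replicate 1 of batch 1, 1 without sham or surgery replicate 2 of batch 2, 4 without sham replicate 1 of batch 2 and 5 without sham replicate 2 of batch 1. Along the S list DESeq2 and batch 2 alone each called 7 members lower. H2bc4 in megakaryocyte progenitor-like cells was -0.014 in batch 2 alone, H1f0 in surgery against sham was 0.0044 in batch 2 alone, and H1f0 in B cell-like cells was called without sham replicate 1 of batch 2, at 0.21 (edgeR adjusted p = 0.0436). The difference in the share of cells high in the G2 and M list turned to 3.27 points without thinning.

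Replicates with the same number deviated together with a correlation of 0.0598 in batch 1 and -0.0523 in batch 2 over 6840 genes, so the numbers were not taken to pair samples. With the replicate block, 0 members were called over all cells and 55 of 62 were positive, with a median of 0.15. Without the replicate block, 0 members were called higher in megakaryocyte progenitor-like cells. Depth limits the members with few UMIs, H1f6, H2ac1, H2bc1 and H2ac21, and the small classes.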
